A study of Mus musculus with 34 samples.

Results

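Glycolysis turns glucose into pyruvate and lactate, and the genes described here code for its transporters, its enzymes and an oxygen-dependent regulator that controls many of them. They were chosen by name: Hif1a, Slc2a1, Slc16a3, Hk3, Pfkp, Aldoa, Pgk1, Eno1, Pkm and Ldha, which are 10 of the 9851 genes listed in at least 1 of 3 deposited tables. The first table lists 9 of them among 9022 genes (Pgk1 was not analysed in it), the rescue table lists all 10 among 8816, and the neutrophil table lists all 10 among 8793. In the first table and in chimeras, libraries of mice lacking the IL-10 receptor alpha chain held more of most of these transcripts than their controls, with the lactate exporter Slc16a3 changing by the largest factor of the members tested. The calls in chimeras were lost when only libraries whose read counts could be recovered were kept. In the rescue table, only Pfkp of the 8 members tested rose in untreated deficient mice, against 2 control libraries. Antibiotics in the drinking water went with lower Ldha and Aldoa and higher Hk3. In deficient mice 27.3% of all tested genes likewise fell and 30.6% rose with them, and in littermates against untreated controls 17.5% and 16.5%. The genotype of the littermates is not stated. Markers of epithelium took a lower share and those of macrophages a higher share of the antibiotic-treated libraries, and their part in these changes was not tested.

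The cells were macrophages sorted from the colonic lamina propria of C57BL/6 mice, and their RNA was measured in 34 libraries of 10 groups. They were sorted as positive for CD45, CD11b and CD64 with intermediate CD11c, and as negative for Ly6c and CD103. Oligo-dT beads captured the messenger RNA, which was amplified by transcription in vitro before sequencing. The study, by its title, concerns gut macrophages that lack the IL-10 receptor alpha chain and make IL-23.

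In the first table, 3 libraries titled IL10R came from mice aged 6 to 7 weeks with this defect, against 3 titled CXhet of the same age. The rescue table, also of mice aged 6 to 7 weeks, holds 5 libraries titled IL10R, 4 titled IL10R_P19, 4 titled IL10R_abx, 3 titled littermate_abx and 2 titled CX. P19 is taken to mean the IL-23 subunit p19, so that IL10R_P19 is read as loss of both proteins. The 2 groups titled abx drank antibiotics. In the neutrophil table, 4 weeks after bone marrow chimerism, 3 libraries were titled ko_igg, 3 ko_ly6g and 4 wt. The titles read as a control immunoglobulin, an antibody to the neutrophil antigen Ly6g, and wild type. The treatment label of that table gives the Ly6g antibody to all 10 libraries, which the titles contradict; groups here go by title. The labels do not say what drives the receptor deletion, what CX, CXhet and 5C5 in the titles stand for, which genotype the littermates have, or how many host cells the chimeras kept. They also do not say whether libraries of a group came from separate mice, so p-values reflect the spread of these libraries alone, and that spread may be technical.

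Values are the deposited ones, which are reads of a gene divided by 1 factor per library. Read totals recovered from them over the listed genes were 1458726 to 2487074 in first-table libraries and 747046 to 2775974 in rescue-table libraries. For 8 of 10 neutrophil-table libraries they were 1028567 to 4525047, and totals of ko_igg 16 and wt 3 were not recovered. The 3 tables were scaled separately, so levels are compared only within a table. A gene is said to have risen or fallen where limma's adjusted p over all tested genes was under 0.05, and SE is the standard error of the log2 change.

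Of 16 macrophage markers, 14 are listed in each table, and none of the 14 was at 0 throughout a group. In the first table, Csf1r, the receptor for a macrophage growth factor, had 3950.4 to 6232 in IL10R libraries and 3938 to 6281 in CXhet libraries. C1qa, a complement subunit made by gut macrophages, had 14371 to 17339.7 in IL10R and 11395 to 19535 in CXhet libraries. All 20 epithelial markers are listed in each table as well, at 0.699% to 1.23% of the summed values in IL10R libraries and 0.967% to 2.07% in CXhet libraries. In these bulk libraries, fewer cells of a type and less RNA per cell cannot be told apart.

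Il10ra, which codes for the targeted receptor chain, had 9.26, 361 and 65.9 in IL10R 1, 2 and 3 of the first table, against 689, 501 and 371 in the CXhet libraries. The library labelled IL10R 2 thus kept a level just under the lowest CXhet library, and the difference was -2.99 (SE 1.09, limma adjusted p = 0.138), which reached an adjusted p of 0.0094 in limma without it. In the rescue table the deficient groups ranged from 4.56 to 31.2 (IL10R), 3.81 to 12.2 (IL10R_P19) and 1.70 to 8.71 (IL10R_abx), against 138 to 191 in littermate_abx and 248 to 284 in CX. In the chimeras it ranged from 77.9 to 111 in ko_igg and 32.2 to 65.1 in ko_ly6g, against 247 to 827 in wt. Il23a, the p19 gene, was not analysed here in the rescue table, so the P19 titles were not checked by it.

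Besides IL10R 2, 4 libraries are named here for marker shares that lay away from those of their groups. In the rescue table, IL10R 27 had a summed share of neutrophil markers of 0.101%, while the other IL10R libraries had 0.00722% to 0.0141%. IL10R_abx_161 had the highest epithelial and the lowest macrophage share of its group, 0.641% and 2.46%. In the neutrophil table, wt 1 had an epithelial share of 1.32% and a macrophage share of 3.47%, against 2.81% to 3.09% and 1.22% to 1.63% in the other wt libraries. In ko_ly6g 5 the macrophage share was 0.604%, against 1.38% and 1.45% in ko_ly6g 7 and 6, and the neutrophil share was 0.0131%, against 0.0656% and 0.0625%. Members' calls that turned on these libraries are given with and without them.

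As background, glucose enters cells through carriers of the GLUT family, is trapped by hexokinases and is committed to glycolysis by phosphofructokinase. Aldolase, phosphoglycerate kinase, enolase and pyruvate kinase carry the sugar to pyruvate, which lactate dehydrogenase reduces to lactate for export. The transcription factor HIF is stable when oxygen is low or when myeloid cells are activated, binds a short core sequence in DNA and raises the transcription of many of these genes. Inflammatory activation is known to shift macrophages towards glycolysis, and IL-10 is known to restrain that shift.

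Promoter sequences are shown for Slc16a3, Slc2a1 and Pfkp, which were higher in deficient libraries in the first table and in chimeras, and for Hk3, which rose with antibiotics. They run from 250 bases before to 50 bases after a RefSeq transcript start in build GRCm38.p6, while the submitters' processing notes name mm9 for the tables, and no coordinate of the tables is used. Capitals mark the core bound by HIF, ACGTG or GCGTG on the printed strand and their reverse complements CACGT or CACGC, where overlapping matches such as the 2 in CACGTG each count.

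Slc16a3 (GRCm38.p6, chr11:120948817-120949116, plus strand): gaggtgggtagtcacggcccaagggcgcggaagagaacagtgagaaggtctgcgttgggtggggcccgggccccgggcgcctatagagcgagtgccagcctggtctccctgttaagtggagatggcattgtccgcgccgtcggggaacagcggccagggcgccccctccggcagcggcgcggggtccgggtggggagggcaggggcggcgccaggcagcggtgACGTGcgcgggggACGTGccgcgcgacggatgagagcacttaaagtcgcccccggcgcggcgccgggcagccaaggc
Slc2a1 (GRCm38.p6, chr4:119108495-119108794, plus strand): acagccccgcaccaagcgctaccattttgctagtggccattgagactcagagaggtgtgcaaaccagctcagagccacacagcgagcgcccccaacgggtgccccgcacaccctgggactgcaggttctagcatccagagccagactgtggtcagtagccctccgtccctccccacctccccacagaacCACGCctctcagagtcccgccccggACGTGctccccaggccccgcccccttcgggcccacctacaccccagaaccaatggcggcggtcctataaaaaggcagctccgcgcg
Pfkp (GRCm38.p6, chr13:6648722-6649021, minus strand): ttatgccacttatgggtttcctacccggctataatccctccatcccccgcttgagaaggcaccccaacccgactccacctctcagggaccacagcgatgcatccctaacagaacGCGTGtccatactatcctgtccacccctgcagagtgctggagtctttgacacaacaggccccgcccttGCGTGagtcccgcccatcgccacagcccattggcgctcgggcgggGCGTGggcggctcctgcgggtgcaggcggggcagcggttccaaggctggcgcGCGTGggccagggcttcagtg
Hk3 (GRCm38.p6, chr13:55021336-55021635, minus strand): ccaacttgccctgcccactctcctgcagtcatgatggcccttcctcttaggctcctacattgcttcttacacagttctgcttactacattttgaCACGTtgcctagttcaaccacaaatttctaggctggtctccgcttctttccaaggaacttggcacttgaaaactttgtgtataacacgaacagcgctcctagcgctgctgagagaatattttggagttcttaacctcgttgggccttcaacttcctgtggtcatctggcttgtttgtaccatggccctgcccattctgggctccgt

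The Slc16a3 window holds 2 matches that begin 27 and 14 bases before the start, and the Slc2a1 window holds 2 at 61 and 36 bases before it. The Pfkp window holds 4 and the Hk3 window 1, the fewest of those printed. Of 16 windows of the 10 genes, 14 hold at least 1 match, and each gene has at least 1 such window. The same letters occur at least once in 43.8% of all 32851 windows of 300 bases and at least 2 times in 20.6%. These percentages count windows and not genes, and were not matched for the share of G and C, 49.0% to 73.3% in the members' windows. A match describes the letters only and does not show that a factor binds there.

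The first comparison asked how loss of the IL-10 receptor went with these transcripts in untreated mice, and there 6 of the 8 members tested rose, and none fell, in IL10R libraries against CXhet libraries. Of all 6766 genes tested, 4.57% rose. The median change was 1.38 on the log2 scale over the 8 members and 0.00 over all tested genes. Eno1 is listed but lay under the filter on low values.

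The regulator Hif1a, the oxygen-controlled subunit of HIF, had 241, 337 and 277 in IL10R 1, 2 and 3, against 115, 144 and 124 in CXhet 1, 2 and 3. Every IL10R library lay above every CXhet library, and the change was 1.15 (SE 0.19, limma adjusted p = 0.00916). Slc2a1, the glucose carrier GLUT1, had 349, 931 and 448 in IL10R libraries, against 125, 144 and 190.4 in CXhet libraries. It was highest in IL10R 2 and did not overlap between groups, with a change of 1.79 (SE 0.35, limma adjusted p = 0.0158). Slc16a3, the carrier MCT4 that exports lactate, had 245, 962 and 455 in IL10R libraries, against 80.3, 59.7 and 48.6 in CXhet libraries. Its lowest IL10R library lay far above its highest CXhet library, and it had the largest change of the 8 members, 2.92 (SE 0.44, limma adjusted p = 0.00589).

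**Figure D1:**
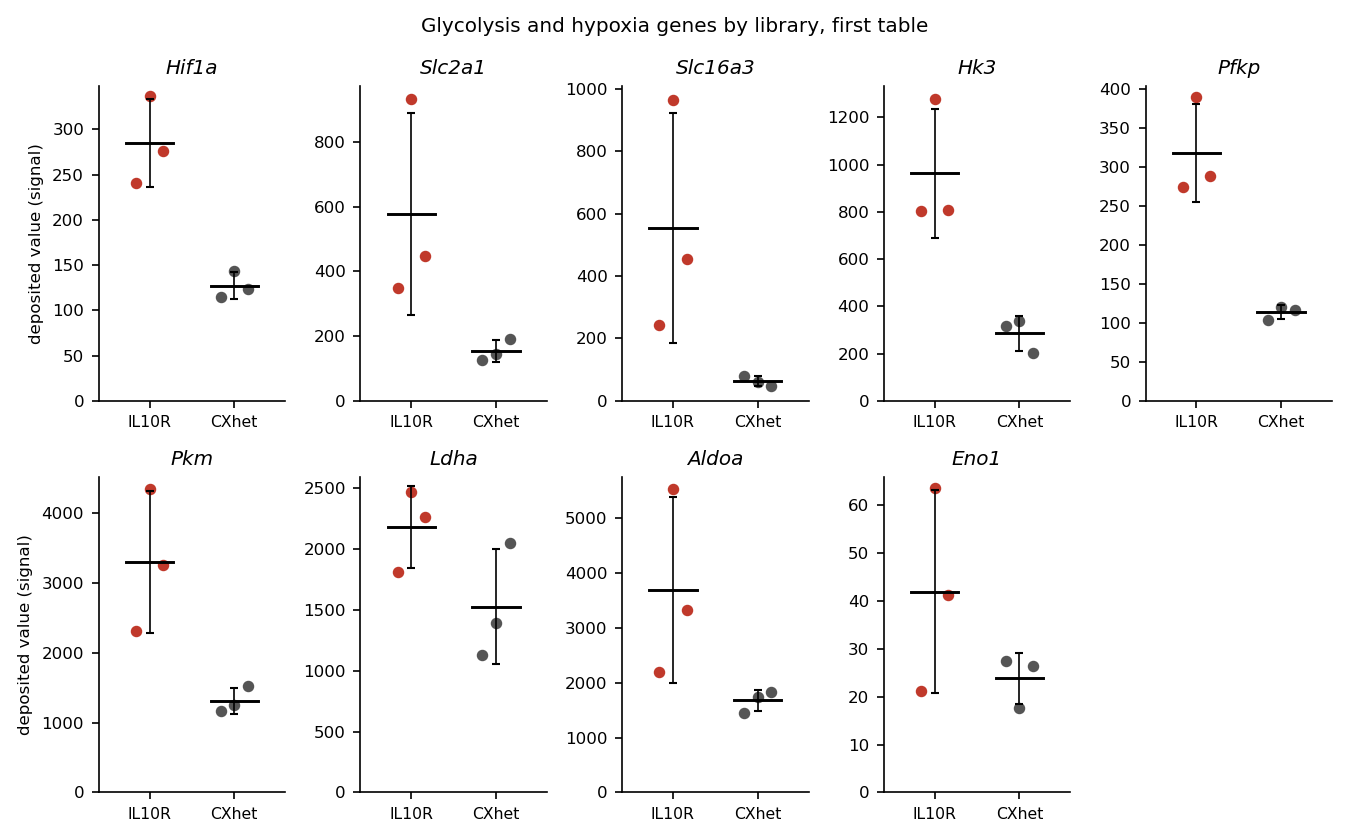
Deposited values (scaled reads, linear axis from 0) of the listed genes in the first table. Points are libraries, the bar is the mean and the whisker the SD, with IL10R left of CXhet (3 libraries each). IL10R 2 is the highest IL10R library of most genes, and Slc16a3 ranges over 245 to 962 in IL10R libraries against 48.6 to 80.3 in CXhet libraries.

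Among the enzymes, Hk3, a hexokinase of myeloid cells, had 805, 1279 and 806 in IL10R libraries, against 316, 339 and 202 in CXhet libraries. The groups did not overlap and the change was 1.75 (SE 0.27, limma adjusted p = 0.00674). Pfkp, the platelet-type phosphofructokinase, had 275, 389.9 and 288 in IL10R libraries, against 104, 121 and 117 in CXhet libraries. Both groups lay in narrow ranges apart from each other, and the change was 1.45 (SE 0.19, limma adjusted p = 0.00365). Pkm, the pyruvate kinase gene of most tissues, had 2318, 4351 and 3253 in IL10R libraries, against 1161, 1249 and 1518 in CXhet libraries. It rose by 1.30 (SE 0.27, limma adjusted p = 0.0209), with no overlap.

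Aldoa, the aldolase of most tissues, and Ldha, the muscle-type subunit of lactate dehydrogenase, did not pass the test. Aldoa had 2203, 5543 and 3330.3 in IL10R libraries, against 1456, 1747 and 1835 in CXhet libraries, a change of 1.04 (SE 0.33, limma adjusted p = 0.0844). Its groups did not overlap, but the IL10R libraries were widely spread. In all, 7 of the 8 members and 16.7% of all tested genes lay wholly higher in IL10R. Ldha had 1812, 2466 and 2259 in IL10R libraries, against 1132, 1395 and 2049 in CXhet libraries, where CXhet 3 lay inside the IL10R range and the change was 0.55 (SE 0.26, limma adjusted p = 0.229). Eno1, an enolase, had 21.2, 63.5 and 41.2 in IL10R libraries, against 27.3, 17.7 and 26.4 in CXhet libraries, and the fit without the filter gave 0.68 (SE 0.42, limma adjusted p = 0.348).

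Some calls turned on single libraries. Slc2a1 was not called without CXhet 1 or CXhet 2 (limma adjusted p from 0.0508 to 0.0782), and Pkm was not called without CXhet 2 or IL10R 3 (limma adjusted p from 0.0704 to 0.103). Aldoa was called without IL10R 1 (limma adjusted p = 0.0274). Without IL10R 2, whose Il10ra level was high, 6 members rose, with Slc16a3 at 2.41 on the log2 scale. The share of all summed values that came from the 9 listed members was 0.335% to 0.599% in IL10R libraries and 0.181% to 0.268% in CXhet libraries.

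Other genes of the pathway were read from lists. Of 18 tested genes from a list of 34 further glycolysis genes, 3 rose and 1 fell, with a median change of 0.32. Slc2a6, a hexose carrier of macrophages, rose by 3.25 (SE 0.46, limma adjusted p = 0.00471). Its CXhet mean of 12.2 lay under the filter's 53.2, so it was tested through its IL10R level. Hk2, another hexokinase, rose by 1.01 (SE 0.18, limma adjusted p = 0.012), and Tpi1, triosephosphate isomerase, rose by 1.09 (SE 0.28, limma adjusted p = 0.0477). Of these, Hk2 was not called without CXhet 2, and Tpi1 was not called when any single library other than IL10R 1 was left out (limma adjusted p of 0.0763 or more).

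Of 22 tested genes from a list of 32 genes tied to HIF, 2 rose and 1 fell, with a median change of 0.05. Vegfa, a growth factor for vessels, rose by 1.62 (SE 0.32, limma adjusted p = 0.0164), and the cytokine gene Mif rose by 1.57 (SE 0.31, limma adjusted p = 0.0171). Pgf, placental growth factor, fell by 3.12 on the log2 scale (SE 0.38, limma adjusted p = 0.0026). Vegfa was not called without CXhet 2 or CXhet 3, nor Mif without CXhet 2, CXhet 3 or IL10R 3 (limma adjusted p of 0.0584 at the lowest).

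Neutrophil markers moved with the same groups. Of 17, 7 are listed, at 0.0260% to 0.0336% of the summed values in IL10R libraries and 0.00604% to 0.00980% in CXhet libraries, and 3 of 4 tested rose. S100a8, a gene of that list, had 31.7 to 58.8 in IL10R libraries and 0 to 1.86 in CXhet libraries, and Retnlg was at 0 in all 3 CXhet libraries. Of 10 monocyte markers, 6 are listed, at 0.0601% to 0.184% in IL10R and 0.0658% to 0.0885% in CXhet libraries, and 3 rose and 1 fell. The part of either list in the members' changes was not tested.

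In the rescue table, the same question of receptor loss was put to 5 IL10R libraries against 2 CX libraries, and the glucose route showed 1 call, that of Pfkp. Of the 8 members tested, only Pfkp rose and none fell, while 3.87% of 6612 genes rose. With rescaled libraries (equal totals), 385 genes rose and 333 fell in this comparison, against 256 and 399 without rescaling. The members' median change was 0.39, and that of all tested genes 0.01. The comparisons of this table share libraries, so their changes are given side by side and not correlated.

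Pfkp had 299, 246, 213, 226 and 136 in IL10R 27, 32, 61, 67 and 68, against 68.3 and 105.3 in CX 1 and 3. All IL10R libraries lay above both CX libraries, with a change of 1.34 (SE 0.30, limma adjusted p = 0.0111). With CX 1 left out, limma's adjusted p was 0.234, from a fit that gives the lone CX 3 the spread of the other groups. Slc2a1 had 332, 187, 215, 159 and 129.5 in IL10R libraries, against 83.9 and 98.5 in CX libraries. These did not overlap either, and the change was 1.08 (SE 0.35, limma adjusted p = 0.0576). Slc2a1 passed the threshold without IL10R 68 (limma adjusted p = 0.0309), after rescaling (0.0368), in a limma fit of these 2 groups alone (0.0448) and in edgeR on recovered reads (edgeR adjusted p = 0.0452).

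The enzymes Aldoa and Ldha did not pass the test. Aldoa had 1178, 949.9, 1196, 1132 and 1012 in IL10R libraries, against 776 and 812 in CX libraries, and Ldha had 1259, 1114, 1218, 1352 and 1089 in IL10R libraries, against 1015 and 882 in CX libraries. Neither overlapped between groups, and 18.8% of all tested genes likewise lay wholly higher in IL10R. The changes were 0.46 (SE 0.18, limma adjusted p = 0.112) for Aldoa and 0.35 (SE 0.19, limma adjusted p = 0.249) for Ldha. Hif1a had 231, 122, 132, 84.3 and 50.7 in IL10R libraries, against 112 and 80.3 in CX libraries. Its CX levels lay inside the IL10R range, and its change of 0.21 (SE 0.45, limma adjusted p = 0.814) carried a wide error. Pkm changed by 0.43 (SE 0.25, limma adjusted p = 0.29) and Eno1 by 0.33 (SE 0.39, limma adjusted p = 0.64). Hk3 was not higher: it had 155, 66.4, 91.2, 65.3 and 57.9 in IL10R libraries, against 82.8 and 100.2 in CX libraries, a change of -0.16 (SE 0.30, limma adjusted p = 0.781).

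Slc16a3 and Pgk1 lay under the filter on low values here and were fitted without it. Slc16a3 had 125, 20.7, 21.9, 38.0 and 12.9 in IL10R libraries, against 11.4 and 14.2 in CX libraries, a change of 1.22 (SE 0.58, limma adjusted p = 0.207). IL10R 27, the library with the highest neutrophil share, held 125, and the other 4 held 12.9 to 38.0. Without IL10R 27 the change was 0.73 (limma adjusted p = 0.346), and the count of members that rose was 1. Pgk1, a phosphoglycerate kinase that forms ATP, changed by 0.36 (SE 0.32, limma adjusted p = 0.537).

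**Figure D2:**
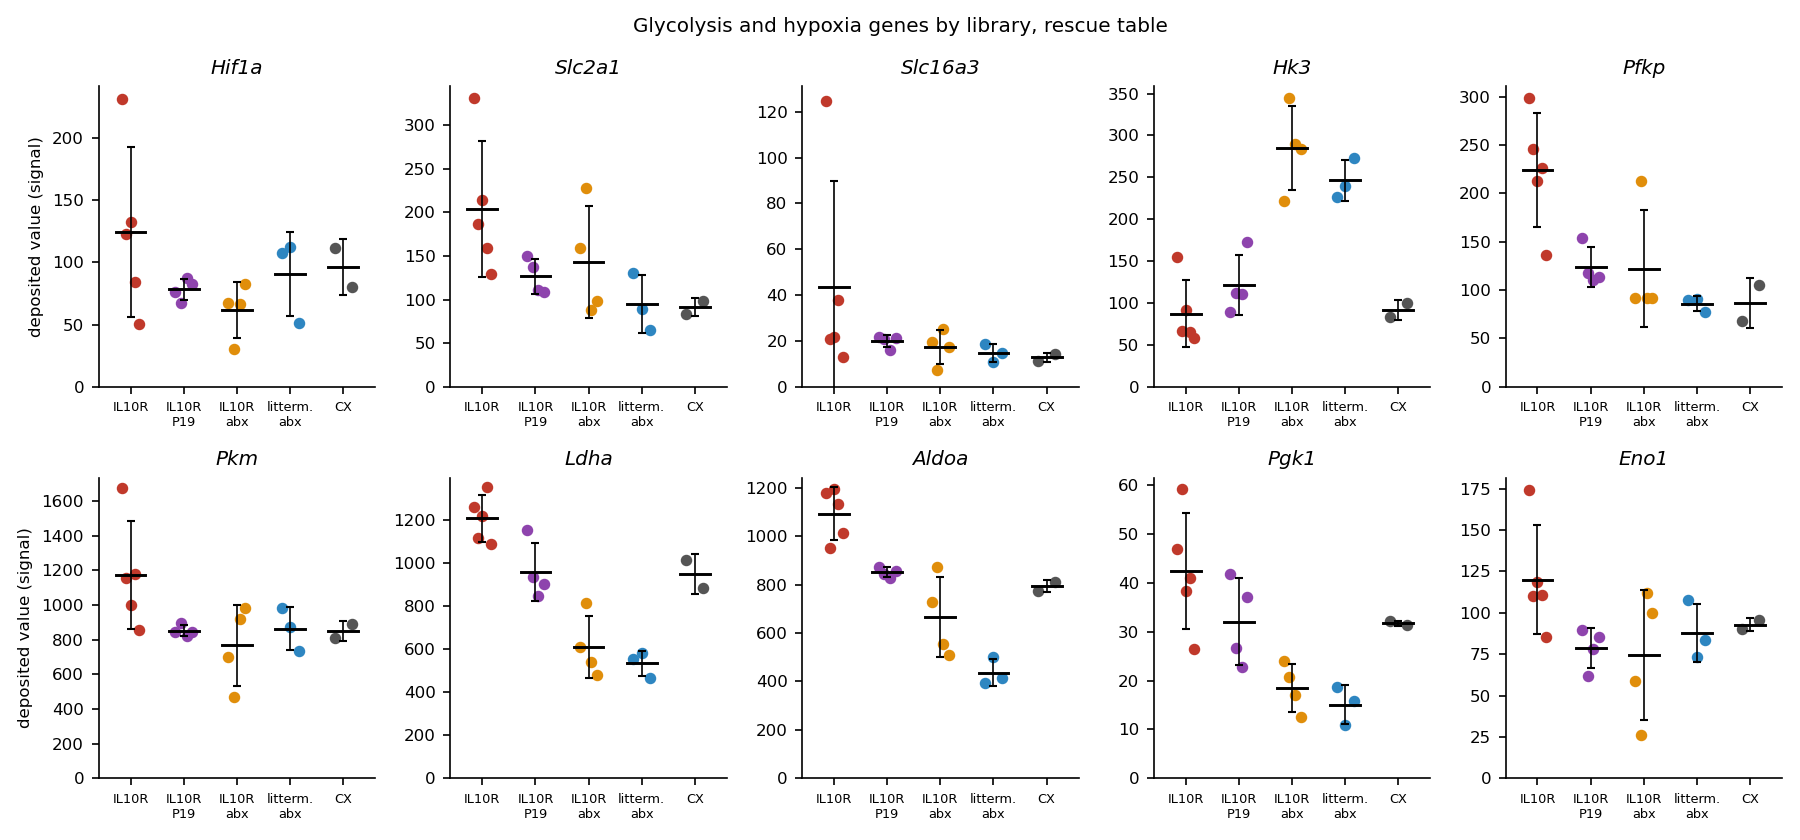
Deposited values (linear axis from 0) of the 10 genes in the rescue table. Points are libraries, the bar is the mean and the whisker the SD, which is cut at 0 where it would run below. Hk3 is higher in both antibiotic groups than in CX, and IL10R 27 is the highest IL10R library for Hif1a, Slc2a1, Slc16a3, Hk3, Pfkp, Pkm and Eno1.

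Among pathway genes in this comparison, 2 of 16 further glycolysis genes rose and none fell, with a median change of 0.19. Bpgm, a mutase beside the main route, rose by 1.29 (SE 0.26, limma adjusted p = 0.00502) and the hexokinase Hk1 by 0.53 (SE 0.15, limma adjusted p = 0.0287). Of 17 genes tied to HIF, Egln1, an oxygen-sensing prolyl hydroxylase, rose by 0.67 (SE 0.19, limma adjusted p = 0.0286). Pgf was the 1 that fell, with a change of -2.31 (SE 0.54, limma adjusted p = 0.0145). None of these 4 calls held without CX 1 (limma adjusted p of 0.0516 or more), and 10 of 14 macrophage markers fell in the same comparison, a movement whose part was not tested.

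The next comparison asked what loss of IL-23 p19 changed in deficient mice. None of the 8 members tested passed the test in IL10R_P19 against IL10R, and 2.43% of all genes did. At an unadjusted p under 0.05 there were 6 members and 1096 genes, and edgeR on recovered reads called 1 member and 287 genes. Of the 8 changes, 7 were below 0, with a median of -0.46 against 0.00 over all tested genes. In the same comparison 6 of 14 macrophage markers and 3 of 3 dendritic cell markers tested rose, with median changes of 0.57 and 0.87, and the macrophage share was 1.15% to 1.84% in IL10R_P19 and 0.966% to 1.27% in IL10R libraries. Their part in the members' changes was not tested.

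Pfkp had 154, 118, 110.0 and 114 in the 4 IL10R_P19 libraries, against 224 ± 59.2 in IL10R libraries (mean ± SD, n = 5). The highest IL10R_P19 library passed the lowest IL10R library, and the change was -0.82 (SE 0.24, limma adjusted p = 0.0846). It was called without IL10R 68 or IL10R_P19_100 (lowest limma adjusted p = 0.0184), in a limma fit of the 2 groups alone (limma adjusted p = 0.0461) and in edgeR (adjusted p = 0.0472). Slc2a1 had 150.4, 137, 111 and 109 in IL10R_P19 libraries, against 204 ± 77.9 in IL10R libraries (n = 5), a change of -0.62 (SE 0.28, limma adjusted p = 0.27). The carrier's IL10R_P19 values were close to one another, while IL10R 27 stood far above the other IL10R libraries.

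Aldoa had 875, 842, 827 and 857 in IL10R_P19 libraries and changed by -0.36 (SE 0.15, limma adjusted p = 0.216), with every IL10R_P19 library under every IL10R library, as for 4.57% of all tested genes. Ldha had 1152, 935, 848 and 900.1 in IL10R_P19 libraries, a change of -0.34 (SE 0.15, limma adjusted p = 0.255). Pkm had 844, 898, 820.3 and 846 in IL10R_P19 libraries and changed by -0.42 (SE 0.20, limma adjusted p = 0.291). These 3 enzymes were lower on average in IL10R_P19 libraries, by less than the test could call. Hif1a had 76.5, 67.6, 87.2 and 82.3 in IL10R_P19 libraries and changed by -0.49 (SE 0.36, limma adjusted p = 0.543). Slc16a3 had 21.7, 20.9, 16.3 and 21.3 in IL10R_P19 libraries, with IL10R_P19_106 the lowest, and changed by -0.61 (SE 0.47, limma adjusted p = 0.58) without the filter. Hk3 was the member with a positive change: it had 89.6, 112, 111 and 173 in IL10R_P19 libraries, against 87.1 ± 39.8 in IL10R libraries (n = 5), a change of 0.53 (SE 0.24, limma adjusted p = 0.263) that was called without IL10R 27 (limma adjusted p = 0.0497).

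Against CX libraries, no member passed the test in IL10R_P19 libraries, and 0.0302% of genes did. At an unadjusted p under 0.05 there were 0 members and 333 genes, and edgeR called 0 members. Pfkp changed by 0.53 (SE 0.32, limma adjusted p = 0.893) and Slc2a1 by 0.46 (SE 0.36, limma adjusted p = 0.901), both with every IL10R_P19 library above both CX libraries, as for 12.6% of all tested genes. Ldha changed by 0.01 (SE 0.19, limma adjusted p = 0.996), Pkm by 0.00 (SE 0.26, limma adjusted p = 0.998) and Aldoa by 0.10 (SE 0.19, limma adjusted p = 0.958). None of 16 further glycolysis genes and 17 genes tied to HIF was called either by limma, in this comparison or in IL10R_P19 against IL10R. With 2 CX libraries these misses do not show that the groups are alike.

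Antibiotics were compared in deficient and in other mice, and there some glycolytic enzymes fell and Hk3 rose. In IL10R_abx against IL10R libraries, 1 of the 8 members rose, where 30.6% of genes rose, and 6 fell, where 27.3% fell. The members' median change was -0.79 against 0.03 over all tested genes. Most genes of the table passed the test here, so a single call sets a member apart from few others. Rescaling to equal totals moved the median of all genes to -0.17 and gave 1531 genes higher and 2392 lower, in place of 2020 and 1803. Under it 1 member rose and 7 fell, the added one being Slc2a1.

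Hk3 had 222, 344, 289.9 and 284 in the 4 IL10R_abx libraries, against 87.1 ± 39.8 in IL10R libraries (mean ± SD, n = 5). All 4 lay above all 5 IL10R libraries, with a change of 1.78 (SE 0.24, limma adjusted p = 3.66e-06), or 1.58 after rescaling. Ldha had 609, 812, 539 and 479 in IL10R_abx libraries, against 1206 ± 108 in IL10R libraries (n = 5). It did not overlap, and the change was -1.01 (SE 0.15, limma adjusted p = 1e-05). Aldoa had 727, 873, 553 and 511 in IL10R_abx libraries, against 1094 ± 108 in IL10R libraries (n = 5). It did not overlap either, with a change of -0.74 (SE 0.15, limma adjusted p = 0.000229). Of all tested genes, 22.7% lay wholly higher and 19.5% wholly lower in IL10R_abx.

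Pfkp had 91.4, 213, 91.6 and 92.2 in IL10R_abx libraries, against 224 ± 59.2 in IL10R libraries (n = 5). IL10R_abx_161 held 213 while the other 3 held 91.4 to 92.2, and the change was -0.93 (SE 0.24, limma adjusted p = 0.00306), or -1.23 without that library (limma adjusted p = 3.37e-05). Pkm had 703, 468, 919 and 981 in IL10R_abx libraries, where IL10R_abx_161 was the lowest, and fell by 0.63 on the log2 scale (SE 0.20, limma adjusted p = 0.0108). Without IL10R_abx_161 its adjusted p in limma was 0.052. Hif1a had 67.5, 30.1, 66.1 and 82.6 in IL10R_abx libraries and changed by -0.92 (SE 0.36, limma adjusted p = 0.0383). Its call was lost without IL10R 27, 32 or 61 or IL10R_abx_161 (limma adjusted p from 0.0672 to 0.151), and it overlapped between the groups. Eno1 had 58.8, 26.3, 112 and 99.9 in IL10R_abx libraries and changed by -0.84 (SE 0.31, limma adjusted p = 0.0266). Its call was lost without IL10R 27 or IL10R_abx_160 or IL10R_abx_161 (limma adjusted p from 0.0623 to 0.114). In a limma fit of the 2 groups alone, neither the Hif1a nor the Eno1 call held (limma adjusted p = 0.0858 and 0.0831).

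The carriers did not pass the test. Slc2a1 had 159, 228, 88.2 and 99.0 in IL10R_abx libraries and changed by -0.54 (SE 0.28, limma adjusted p = 0.114), with IL10R_abx_161 highest, and it passed without IL10R 68 or IL10R_abx_161 (lowest limma adjusted p = 0.0184). Slc16a3 had 19.6, 7.52, 25.4 and 17.3 in IL10R_abx libraries and, without the filter, changed by -0.91 (SE 0.47, limma adjusted p = 0.106), passing without IL10R 68 (limma adjusted p = 0.0286). Pgk1, also fitted without the filter, had 23.9, 20.7, 17.0 and 12.5 in IL10R_abx libraries, against 46.8, 59.1, 38.4, 41.0 and 26.5 in IL10R libraries. It fell by 1.14 on the log2 scale (SE 0.26, limma adjusted p = 0.000892).

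Of 16 further glycolysis genes, 2 rose and 12 fell with antibiotics in deficient mice, with a median change of -0.72. Bpgm, Tpi1 and Hk1 changed by -2.26, -1.09 and -0.96 (limma adjusted p = 3.68e-08, 1.01e-05 and 1.29e-06). Pfkfb4, an enzyme that makes an activator of phosphofructokinase, rose by 0.99 (SE 0.14, limma adjusted p = 8.66e-06). Of 17 genes tied to HIF, 4 rose and 5 fell, with a median change of -0.19. Plin2, a coat protein of lipid droplets, rose by 1.56 (SE 0.18, limma adjusted p = 6.28e-07), and P4ha1, a collagen prolyl hydroxylase, rose by 1.16 (SE 0.17, limma adjusted p = 6.59e-06). Car9, a carbonic anhydrase, changed by -1.90 and Higd1a, a mitochondrial protein, by -2.15 (limma adjusted p = 1.87e-06 and 1.85e-06). As 30.6% of all tested genes rose and 27.3% fell here, calls in both directions are not particular to the HIF list.

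Markers of 2 cell types moved strongly with antibiotics. All 20 epithelial markers fell in IL10R_abx against IL10R libraries, and their summed share was 0.415% to 0.641% in IL10R_abx and 2.22% to 2.84% in IL10R libraries. All 14 macrophage markers tested rose, with shares of 2.46% to 3.22% in IL10R_abx and 0.966% to 1.27% in IL10R libraries. No epithelial marker was at 0 throughout a group. Colon epithelium also expresses glycolytic enzymes such as Ldha and Aldoa, and the part of the epithelial share in their changes was not tested. Hk3 rose beside macrophage markers with a median change of 1.68, and the part of the macrophage share in its rise was not tested.

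**Figure D3:**
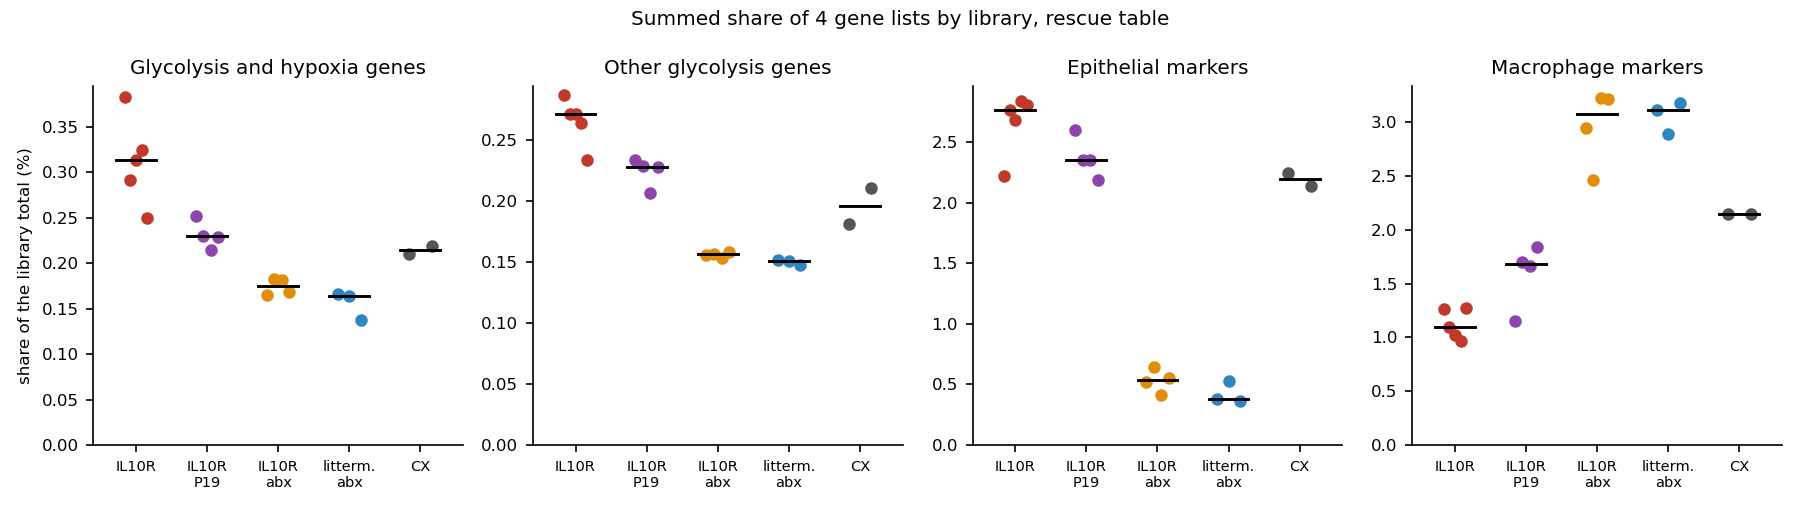
Share of all summed deposited values (percent, linear axis) in the rescue table, by group. Panels show the members, the further glycolysis genes, the epithelial markers and the macrophage markers. Points are libraries and the line is the median. In the rescue table the epithelial share is 0.415% to 0.641% in IL10R_abx libraries and 2.22% to 2.84% in IL10R libraries.

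Antibiotics in littermates were compared as littermate_abx against CX, and as the genotype of the littermates is not stated, antibiotics and any difference in genotype cannot be told apart there. Of the 8 members, Hk3 rose, where 16.5% of genes rose, and Ldha and Aldoa fell, where 17.5% fell. Hk3 had 226, 239.7 and 273 in the 3 littermate_abx libraries, against 82.8 and 100.2 in CX libraries, a change of 1.42 (SE 0.32, limma adjusted p = 0.00239). Ldha had 554, 579.7 and 468 in littermate_abx libraries, against 1015 and 882 in CX libraries. Its change of -0.83 (SE 0.20, limma adjusted p = 0.00379) was not called without CX 1 (limma adjusted p = 0.0555). Aldoa had 393, 502 and 415 in littermate_abx libraries, against 776 and 812 in CX libraries, a change of -0.87 (SE 0.20, limma adjusted p = 0.00238). None of the 3 overlapped between the groups, where 33.1% of all tested genes lay wholly higher and 29.1% wholly lower in littermate_abx.

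Pfkp, Pkm and Slc2a1 changed little in littermate_abx against CX. They changed by 0.01 (SE 0.33), 0.02 (SE 0.27) and 0.01 (SE 0.38), and all 3 turned negative after rescaling, which gave -0.12, -0.12 and -0.12. Pgk1, without the filter, had 18.6, 10.8 and 15.8 in littermate_abx libraries, against 32.1 and 31.3 in CX libraries, and fell by 1.06 on the log2 scale (limma adjusted p = 0.028), a call lost without CX 1, CX 3 or littermate_abx_491 (lowest limma adjusted p = 0.0974). Rescaling gave 775 genes higher and 1420 lower in place of 1094 and 1156. Of 16 further glycolysis genes 1 rose and 8 fell, among them Hk1 with a change of -0.96 and Bpgm with -1.40 (limma adjusted p = 0.000192 and 0.000858). Of 17 genes tied to HIF, 2 rose and 2 fell. Plin2 rose by 0.94 (SE 0.25, limma adjusted p = 0.00655) and the histone demethylase gene Kdm3a by 0.75 (SE 0.23, limma adjusted p = 0.0183), while Car9 and Higd1a changed by -1.18 and -1.25 (limma adjusted p = 0.00926 and 0.0144). Plin2 was not called without CX 1, Car9 and Higd1a were not called without CX 3, and Kdm3a was not called when either was left out (limma adjusted p of 0.0511 or more). The epithelial share was 0.361% to 0.531% in littermate_abx libraries and 2.14% to 2.25% in CX libraries, and all 20 of its markers fell, while 8 of 14 macrophage markers rose. The part of these markers in the members' changes was not tested.

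Within antibiotic-treated mice, no member passed the test between IL10R_abx and littermate_abx, where 0.0302% of genes did. At an unadjusted p under 0.05 there were 1 member and 997 genes, and edgeR called 0 members. Aldoa came nearest, with 727, 873, 553 and 511 in IL10R_abx libraries against 393, 502 and 415 in littermate_abx libraries. Every IL10R_abx library lay above every littermate_abx library, as for 4.82% of all tested genes, and the change of 0.58 (SE 0.17, limma adjusted p = 0.175) was called without IL10R_abx_497 (limma adjusted p = 0.0273). Pfkp had 91.4, 213, 91.6 and 92.2 in IL10R_abx libraries, against 89.8, 90.7 and 76.9 in littermate_abx libraries, a change of 0.40 (SE 0.28, limma adjusted p = 0.499). Hk3, high in both groups, changed by 0.20 (SE 0.27, limma adjusted p = 0.748).

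Whether the effect of receptor loss differed between treated and untreated mice was tested as a difference of differences. None of the 8 members passed, and 7 genes, 0.106% of those tested, did. Pfkp had the smallest unadjusted p of the members, with an effect smaller by 0.94 on the log2 scale in treated mice (difference -0.94, SE 0.41, limma adjusted p = 0.416). At an unadjusted p under 0.05 there were 1 member and 699 genes, and edgeR called 24 genes. With 2 CX libraries, a miss does not show that the effects were equal, and the calls in untreated and treated mice are not shown to differ.

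**Figure D4:**
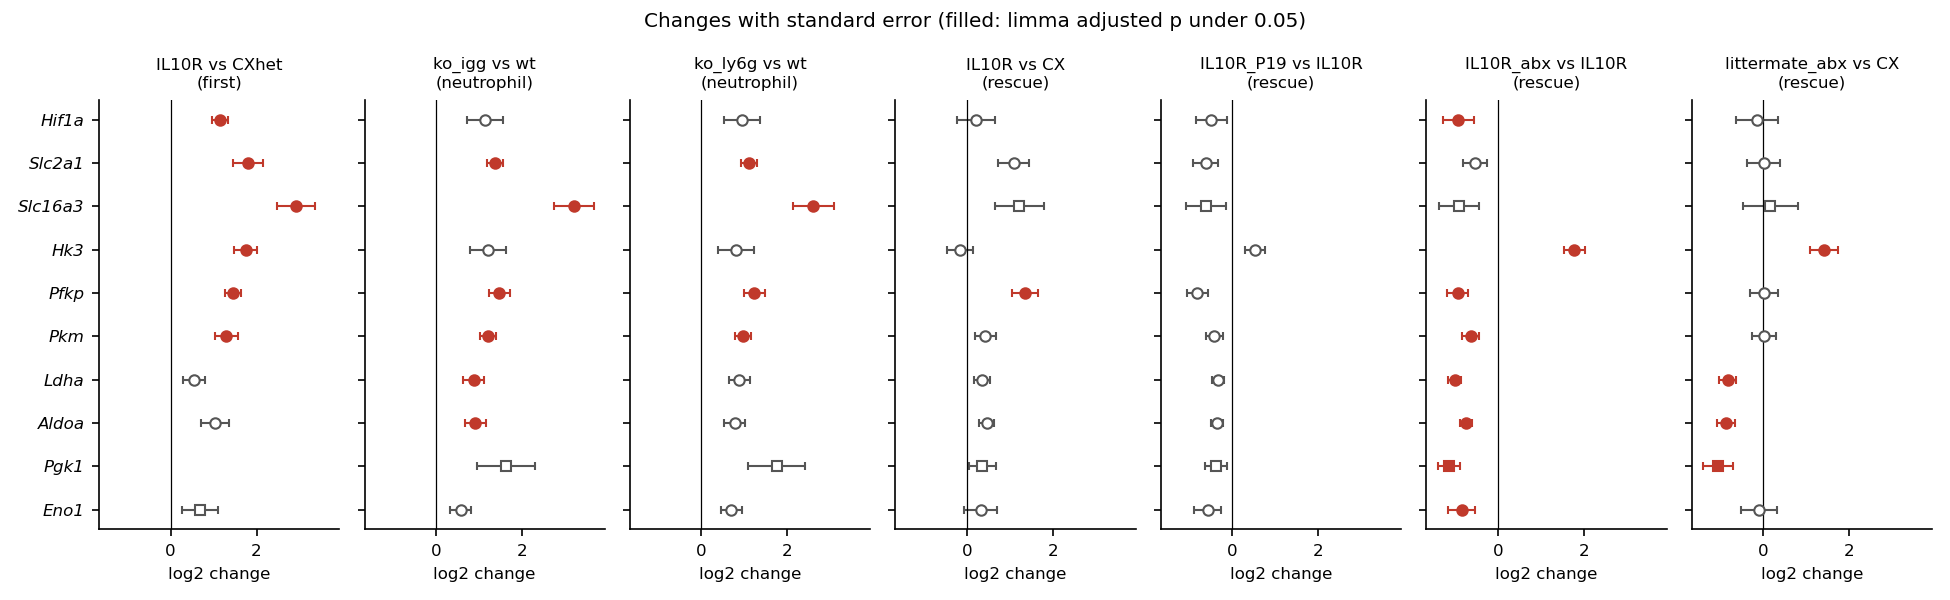
Log2 changes (symbol) with their standard error (line) of the 10 genes, the first-named group over the second. Panels show IL10R against CXhet, ko_igg and ko_ly6g against wt, IL10R against CX, IL10R_P19 and IL10R_abx against IL10R, and littermate_abx against CX. IL10R_P19 against CX, IL10R_abx against littermate_abx, ko_ly6g against ko_igg and the difference of differences are not drawn. Filled red symbols have a limma adjusted p under 0.05, and squares are genes under the filter on low values, taken from the fit without it. Most members lie above 0 in IL10R against CXhet and in ko_igg against wt, and Hk3 stands apart from the rest with antibiotics.

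In the chimeras, the question of receptor loss was put to ko_igg against wt, and 6 of the 9 members tested rose, against 5.73% of 6594 genes. The wt titles name no antibody. Receptor loss and any difference in antibody therefore cannot be told apart in ko_igg or ko_ly6g against wt. The members' median change was 1.21 and that of all tested genes 0.06. Slc16a3 again had the largest change: it had 335, 311 and 329 in ko_igg 14, 16 and 18, against 98.2, 26.6, 31.2 and 16.8 in wt 1 to 4. The wt 1 library was the highest of its group and still far under all ko_igg libraries, with a change of 3.21 (SE 0.47, limma adjusted p = 0.00294). Slc2a1 had 616, 789 and 577 in ko_igg libraries, against 211, 244, 256 and 305 in wt libraries. It did not overlap and changed by 1.37 (SE 0.19, limma adjusted p = 0.00202).

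Pfkp had 696, 753 and 595 in ko_igg libraries, against 158, 313, 249.7 and 289 in wt libraries, a change of 1.47 (SE 0.25, limma adjusted p = 0.0054). Pkm had 3592, 3224 and 4422 in ko_igg libraries, against 1956, 1588, 1574 and 1359.7 in wt libraries, a change of 1.21 (SE 0.19, limma adjusted p = 0.00431). Both were without overlap, as were 17.1% of all tested genes with ko_igg wholly higher, and wt 1 was the lowest wt library for Pfkp and the highest for Pkm. Aldoa had 3882, 3847 and 4028 in ko_igg libraries, against 1518, 2247, 2504 and 2197 in wt libraries, and rose by 0.91 (SE 0.24, limma adjusted p = 0.0393). Ldha had 4024, 4146 and 5227 in ko_igg libraries, against 1622, 2707, 2891 and 2635 in wt libraries, and rose by 0.88 (SE 0.24, limma adjusted p = 0.0478). The last 2 calls were lost without any 1 of ko_igg 14, 16 and 18 and wt 2, 3 and 4 (limma adjusted p from 0.059 to 0.12 for Aldoa and from 0.0682 to 0.127 for Ldha).

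**Figure D5:**
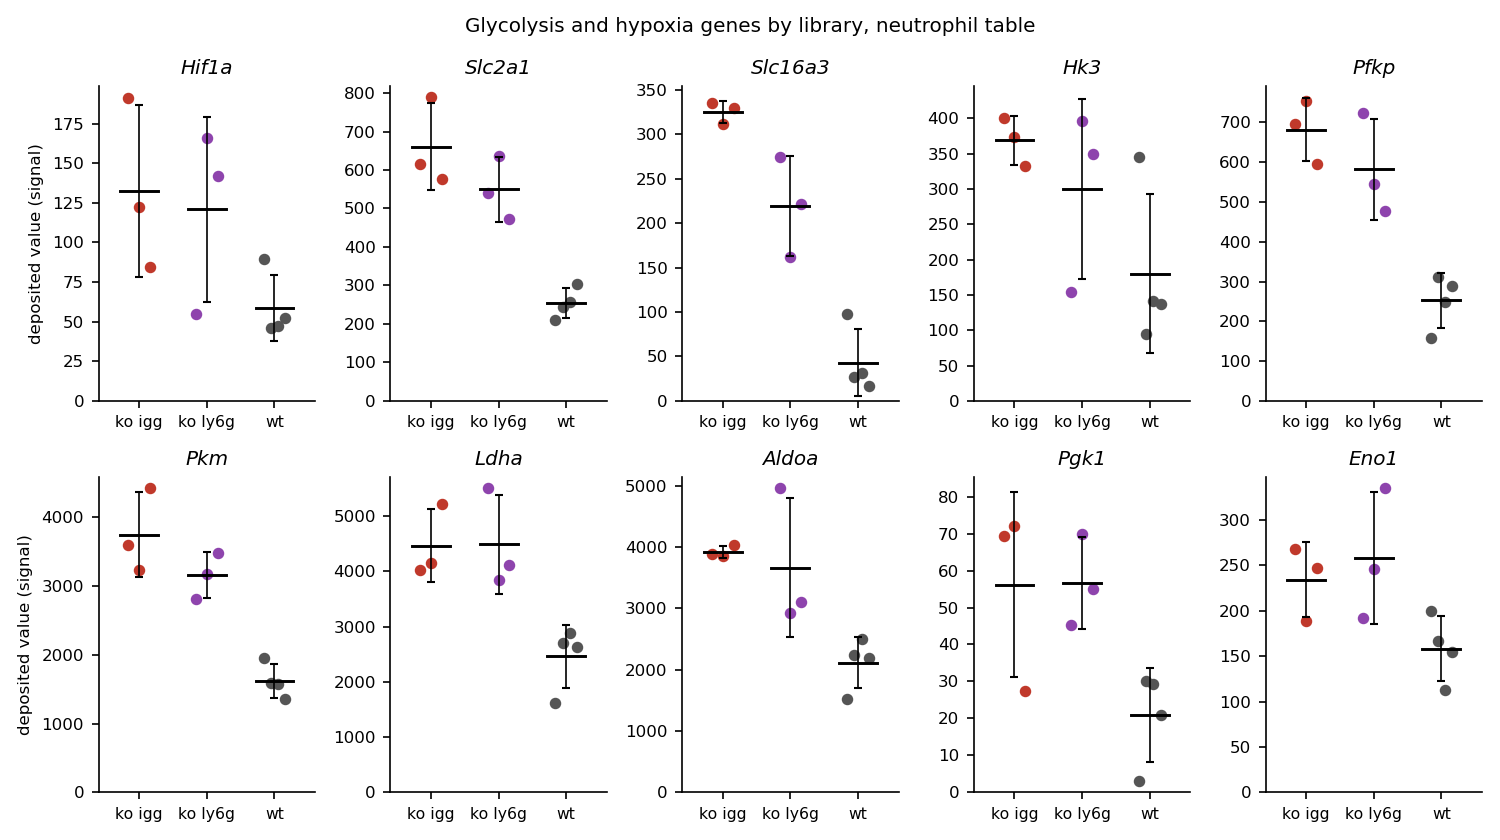
Deposited values (linear axis from 0) of the 10 genes in the neutrophil table. Points are libraries, the bar is the mean and the whisker the SD. Slc16a3 lies at 311 to 335 in ko_igg and 162 to 274 in ko_ly6g libraries, above 16.8 to 98.2 in wt libraries.

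Hif1a had 191, 122 and 84.2 in ko_igg libraries, against 89.3, 45.8, 47.1 and 52.4 in wt libraries, a change of 1.14 (SE 0.41, limma adjusted p = 0.107). Hk3 had 401, 373 and 332 in ko_igg libraries, against 345, 94.4, 142 and 137 in wt libraries, a change of 1.21 (SE 0.42, limma adjusted p = 0.0977). In both, wt 1 stood above the other wt libraries and reached into the ko_igg range. Without wt 1 both passed the test (limma adjusted p = 0.0457 for Hif1a and 0.00878 for Hk3), and 8 members rose. Eno1 had 268, 188 and 247 in ko_igg libraries, against 199, 167, 113 and 154 in wt libraries, a change of 0.58 (SE 0.24, limma adjusted p = 0.157). Pgk1 had 69.3, 71.9 and 27.3 in ko_igg libraries, against 2.98, 30.2, 29.4 and 21.0 in wt libraries, and without the filter changed by 1.63 (SE 0.67, limma adjusted p = 0.147).

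Without both libraries whose reads could not be recovered, ko_igg 16 and wt 3, none of the 6 calls held. In edgeR on the other 8 libraries no member was called, with 56 genes called in all, and limma on the same 8, an alternative chosen after seeing the data, called no member and 60 genes. There the limma adjusted p of Slc16a3, Slc2a1, Pfkp and Pkm ran from 0.0532 to 0.0904. Their changes under it were 3.19, 1.25, 1.40 and 1.30 on the log2 scale.

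Pathway genes moved in the chimeras too. Of 22 genes tied to HIF, 6 rose and 1 fell in ko_igg against wt, with a median change of 0.46. Ero1l, an oxidoreductase of the endoplasmic reticulum, rose by 1.61 (SE 0.22, limma adjusted p = 0.00223), and Bnip3, a protein of mitochondrial turnover, rose by 1.58 (SE 0.28, limma adjusted p = 0.00739). Vegfa rose by 1.26 (SE 0.21, limma adjusted p = 0.00547) and Mif by 1.13 (SE 0.19, limma adjusted p = 0.00495), none of the 4 losing its call without any 1 library, though edgeR called none of them. Of 18 further glycolysis genes, 2 rose and 2 fell. Tpi1 rose by 1.30 (SE 0.26, limma adjusted p = 0.0127) and Bpgm by 0.94 (SE 0.25, limma adjusted p = 0.044). The muscle enolase gene Eno3 changed by -2.60 (limma adjusted p = 0.0282). Without ko_igg 14, Tpi1, Bpgm and Eno3 were not called (limma adjusted p of 0.0509 or more).

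The antibody to Ly6g was tested in ko_ly6g against ko_igg libraries, and none of the 9 members, nor any other gene (0%), was called by limma. At an unadjusted p under 0.05 there were 0 members and 127 genes (1.93%), and edgeR called 0. Slc16a3 had 274, 162 and 221 in ko_ly6g 5, 6 and 7, against 335, 311 and 329 in ko_igg libraries. All ko_ly6g libraries lay under all ko_igg libraries, as for 3.82% of all tested genes, but the change was -0.60 (SE 0.50, limma adjusted p = 1). Aldoa changed by -0.14 (SE 0.26) and Pkm by -0.24 (SE 0.21). With errors of this size, a miss does not show that the antibody left these transcripts as they were.

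None of the 4 neutrophil markers tested was called by limma in ko_ly6g against ko_igg, and edgeR called 0 genes. Their share was 0.0131% to 0.0656% in ko_ly6g and 0.0154% to 0.0495% in ko_igg libraries, against 0.00472% to 0.00943% in wt libraries. S100a8 had 23.3 to 113 in ko_ly6g, 26.2 to 68 in ko_igg and 0 to 1.84 in wt libraries. In ko_igg against wt, 2 of 4 tested neutrophil markers and 2 of 4 tested monocyte markers rose beside the members, and 2 of 3 tested dendritic cell markers fell. The monocyte share was 0.0466% to 0.126% in ko_igg and 0.0360% to 0.0397% in wt libraries, and the dendritic share was 0.0113% to 0.0128% in ko_igg and 0.0270% to 0.0572% in wt libraries. Of 14 macrophage markers, 1 fell and none rose, with a median change of -0.66. The part of these lists in the members' changes was not tested.

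Against wt, 4 of the 9 members rose in ko_ly6g libraries, where 2.99% of genes rose, and these comparisons share the wt libraries with those above. Slc2a1 had 539, 637 and 471 in ko_ly6g libraries and rose by 1.11 (SE 0.19, limma adjusted p = 0.0111), a call lost without ko_ly6g 6 (limma adjusted p = 0.0527). Slc16a3 rose by 2.61 (SE 0.47, limma adjusted p = 0.0152), a call lost without ko_ly6g 5 or 7 (lowest limma adjusted p = 0.0553). Pfkp had 723, 544 and 478 in ko_ly6g libraries and rose by 1.23 (SE 0.25, limma adjusted p = 0.0232), a call lost without wt 3, ko_ly6g 5 or ko_ly6g 6 (lowest limma adjusted p = 0.0666). Pkm had 2814, 3179.8 and 3479.9 in ko_ly6g libraries and rose by 0.97 (SE 0.19, limma adjusted p = 0.0224), a call lost without wt 2, 3 or 4 or ko_ly6g 6 or 7 (lowest limma adjusted p = 0.0517). All 4 lay above every wt library, as did 13.8% of all tested genes.

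Ldha had 5505, 3838 and 4124 in ko_ly6g libraries and changed by 0.88 (SE 0.24, limma adjusted p = 0.0695), passing without wt 1 (limma adjusted p = 0.0444). Aldoa had 4963, 2923 and 3112 in ko_ly6g libraries and changed by 0.77 (SE 0.24, limma adjusted p = 0.102). In both, ko_ly6g 5 was the highest library of the table's 3 groups. The same library was the lowest ko_ly6g library for Hif1a, which had 54.9, 166 and 142, and for Hk3, which had 155, 395 and 349. Without this library 2 members rose in ko_ly6g against wt, with 143 genes called in place of 286, and none was called in ko_ly6g against ko_igg. In edgeR, and in limma, on the 8 libraries with recovered reads no member was called in ko_ly6g against wt, with 56 and 53 genes called. Of 22 genes tied to HIF, 4 rose and 1 fell in ko_ly6g against wt, Ero1l by 1.25 (SE 0.22, limma adjusted p = 0.0134) and Bnip3 by 1.46 (SE 0.28, limma adjusted p = 0.0201) among those that rose. Both calls were lost without some single library, Ero1l without ko_ly6g 6 (limma adjusted p = 0.051) and Bnip3 without wt 3, wt 4, ko_ly6g 5 or ko_ly6g 7 (lowest limma adjusted p = 0.0548). Of 18 further glycolysis genes, 2 rose and none fell.

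The members' share of all summed values put these tables side by side without comparing levels. In the chimeras it was 0.535% to 0.574% in ko_igg and 0.435% to 0.565% in ko_ly6g, against 0.203% to 0.293% in wt libraries. In the rescue table it was 0.25% to 0.383% in IL10R, 0.215% to 0.251% in IL10R_P19, 0.165% to 0.183% in IL10R_abx and 0.137% to 0.166% in littermate_abx libraries, against 0.210% to 0.219% in CX libraries. The antibiotic groups were the lowest there and the untreated IL10R group the highest. The share follows mainly Pkm, Ldha and Aldoa, with CX means of 850, 949 and 794, where no other member passed 96.1. Hk3, which rose in both antibiotic groups, went the other way.

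Some of these genes have near copies that could share reads. In GENCODE M21 transcripts, 72.2% of the 50-base windows of Eno1 also occur in other genes, mostly Eno1b, and most of those of Pgk1 occur in Pgk1-rs7. For Pkm it is 34.4%, for Ldha 16.6% and for Aldoa 13.5%, while Slc16a3 and Hk3 share none. Eno1b has its own row, with 152 to 272 in IL10R and 113 to 118 in CXhet libraries of the first table, so the values of Eno1 are uncertain, and likewise those of Pgk1 and Pkm. Pfkp overlaps Pitrm1, which lies on the other strand, over 69.9% of windows in its last 1000 bases. Pitrm1 had 84.7 to 109 in IL10R and 75.2 to 101 in CXhet libraries, and 77.4 to 111 in ko_igg and 68.5 to 115 in wt libraries. Whether the authors' counting used strand is not given in the sources used here.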

How the data were processed

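Macrophage RNA was measured in 34 libraries of 10 groups, taken from the sample titles. The submitters' processing notes name mm9 as the build and HOMER, HISAT 0.1.6 and bcl2fastq as tools. Their roles, the annotation and any use of strand are not given there. The deposited values are a signal: reads of a gene over a factor for its library, as read from the values, of which 100% were whole multiples of 1 read within 0.01 read in all but 2 libraries. Who made the factors and the choice of genes listed is not stated.

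The design assumed counts or, failing that, normalized values, and the test for the second case was used. In each table all groups entered 1 limma fit (limma 3.58.1, R 4.3.3, trend and robust variances) of log2(value + pseudocount), with pseudocounts of 1.31, 0.997 and 0.982 in the first, rescue and neutrophil table. On this scale changes of low genes come out too small. Genes in the lower quartile of the mean were left out (mean at most 53.2, 40.4 and 68.00), so that 6766, 6612 and 6594 were tested, and p-values were adjusted by Benjamini-Hochberg. Of the members, 8, 8 and 9 passed that filter, and the others were fitted without it. The count test on whole reads recovered, edgeR 4.0.16, called 625 genes in IL10R against CXhet, where limma called 588. Alternatives were 5 times the pseudocount, no filter, equal totals, edgeR, the 2 groups alone, a replicate block and each library left out. Among libraries with recovered reads, every pair within a group differed by more than counting noise (smallest chi-square per degree of freedom 3.595), so none was merged as a repeat deposit. The pairs with ko_igg 16 or wt 3 were not compared in this way. Intervals and errors cover the spread between libraries only.

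The members, the lists and the tests were chosen with earlier results of these data known. Named genes are the 10 members, Il10ra and Il23a, and up to 4 called genes per list and comparison with the smallest adjusted p. A gene that this rule names is not reported here. Marker genes are named as values of their lists, and Eno1b and Pitrm1 for shared sequence. Promoters come from RefSeq (GRCm38.p6), where all 10 members matched by symbol.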

Additional observations from a re-analysis of the deposited data

Results flagged for a closer look

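In groups of 4 or 5 libraries, 4 of 40 pairs of gene and group had a highest or lowest library that lay farther from its neighbour than Dixon's 95% limit allows, and chance gives about 1 in 20. Slc16a3 was 125 in IL10R 27 of the rescue table, while the other 4 IL10R libraries held 12.9 to 38.0. Slc16a3 was 16.3 in IL10R_P19_106, under 20.9 to 21.7 in the other 3 libraries of that group. Pfkp was 213 in IL10R_abx_161, above 91.4 to 92.2 in the other 3. Hif1a was 89.3 in wt 1 of the chimeras, above 45.8 to 52.4 in the other 3 wt libraries. Marker shares of IL10R 27, IL10R_abx_161 and wt 1 also stood apart from their groups.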

How the results depend on the processing

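The 29 changes of a member that passed the test kept their sign under all settings run, but lost the call in 68 of 358 runs of a change under a setting, 40 of them with a library left out. Of the 80 other changes, 20 of 1010 such runs brought a call and 48 turned the sign. The cause of these shifts was not tested, beyond fewer libraries where some were left out. In the first table, deviations of same-numbered IL10R and CXhet libraries correlated at -0.058, 0.151 and 0.354. Those of differently numbered libraries correlated at -0.298 to 0.149. With 3 libraries per group, these values cannot settle whether the replicate numbers pair the libraries. A fit with the replicate block called 7 members and 808 genes, the added member being Aldoa. In the other tables no paired analysis was possible because the groups share no numbers that the labels tie to a shared animal or day.

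For IL10R against CX, 2 members were called after rescaling and by edgeR, and 3 members and 1093 genes with the 2 groups alone. For IL10R_P19 against IL10R, 1 member was called with the 2 groups alone and by edgeR, which called 287 genes. For IL10R_P19 against CX, the 2 groups alone gave 6 genes. For ko_igg against wt, edgeR gave 0 members and 56 genes and limma on the same 8 libraries 0 members and 60 genes. For ko_ly6g against wt, the 2 groups alone gave 1 member and 96 genes, edgeR 0 members and 56 genes, and limma on the 8 libraries 0 members and 53 genes. The difference of differences gave 0 genes after rescaling and 24 by edgeR.

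With 1 library left out in turn, genes called ranged from 200 to 588 in IL10R against CXhet, 20 to 741 in IL10R against CX, 17 to 377 in IL10R_P19 against IL10R, 0 to 2 in IL10R_P19 against CX, and 2 to 385 in IL10R_abx against littermate_abx. They ranged from 1325 to 2058 in littermate_abx against CX, 203 to 1039 in ko_igg against wt, 103 to 489 in ko_ly6g against wt, and 0 to 73 in the difference of differences. Members called ranged from 0 to 2, 0 to 1, 0 to 1 and 1 to 5 in IL10R against CX, IL10R_P19 against IL10R, IL10R_abx against littermate_abx and ko_ly6g against wt.

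Some changes that did not pass the test turned sign. After rescaling, Pgk1 in IL10R_P19 against CX was 0.0175, and Slc2a1, Pfkp and Pkm in littermate_abx against CX were -0.1242, -0.122 and -0.1201. By edgeR they were 0.0042, -0.0027, -0.0984 and -0.0369, and Pkm in IL10R_P19 against CX was -0.0093. On 8 libraries, Eno1 in ko_ly6g against ko_igg was -0.034. With 1 library left out, changes that turned sign ranged as follows in IL10R against CX: Hif1a -0.0536 to 0.4888. In IL10R_P19 against CX they ranged over Pkm -0.0631 to 0.0727, Ldha -0.0915 to 0.11 and Pgk1 -0.1608 to 0.121. In IL10R_abx against littermate_abx they ranged over Slc16a3 -0.0619 to 0.4825, Pkm -0.3535 to 0.0016 and Eno1 -0.6793 to 0.0029. In littermate_abx against CX they ranged over Hif1a -0.3838 to 0.2113, Slc2a1 -0.2472 to 0.25, Slc16a3 -0.009 to 0.3544, Pfkp -0.2962 to 0.3204, Pkm -0.0825 to 0.1286 and Eno1 -0.2477 to 0.0262. In ko_ly6g against ko_igg they ranged over Hif1a -0.4999 to 0.289, Hk3 -0.6593 to 0.0158, Ldha -0.1565 to 0.1182, Aldoa -0.3773 to 0.0044, Pgk1 -0.3328 to 0.3498 and Eno1 -0.093 to 0.3079. In the difference of differences they ranged over Aldoa -0.0156 to 0.2412 and Pgk1 -0.2929 to 0.0779.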
